A study of Caenorhabditis elegans with 2 samples.

Results

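The strong X-linked peaks of a CEH-63 chromatin immunoprecipitation (ChIP-seq) experiment are described here. They were chosen by ranking the 30000 intervals of the peak list called on both replicates together (the pooled list) by their signal, keeping the 3000 highest, and retaining those on the X chromosome. This left 524 strong X peaks, or 513 without those within 20 kb of ceh-63. The selection rested on signal and chromosome, so signal, rank and the number of members are descriptions and support no result. By construction 10% of the pooled peaks were strong, and the X share of the strong set (17.5%) lay beside an X share of 17.3% of the whole pooled list.

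The Caenorhabditis elegans strain was OP742, whose integrated array wgIs742 carries C02F12.10 (ceh-63) fused to TY1, EGFP and 3xFLAG together with unc-119(+), in an unc-119(tm4063) background. The 2 biological replicates form a single group of starved L1 larvae, collected after bleaching, aged 6 hours, pooled male and female, and taken as whole animals. Chromatin was sonicated and precipitated with an antibody against GFP, while the antibody field names ceh-63. The control library was not analysed here, no second genotype or condition was available for comparison, and the array adds copies of the ceh-63 region whose number is not given in the sources used here.

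The precipitated protein, CEH-63, belongs to the homeodomain family and is known for a role in DVC, an interneuron of the tail. In C. elegans hermaphrodites, gene expression from both X chromosomes is reduced by the dosage compensation complex, a condensin-like assembly that SDC-2 brings to X. The complex loads at recruitment elements on X that are rich in a sequence called the MEX motif, and then spreads along the chromosome. Homeodomain proteins usually recognise short words with a TAAT core, such as TAATTA. The positions of known recruitment elements were not used here, and no library of a dosage compensation protein was analysed.

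Matches to the MEX consensus of 12 letters with at most 2 mismatches were in 13 of the 23 X peaks among the 100 strongest pooled peaks. The other 10 held none. The lines print the 3 exact matches in the genome and 6 of the 12 matches with 1 mismatch inside strong X peaks, 1 for each kind of change or position. Each has 20 bases on either side, written 5′ to 3′ on the strand of the match, with the match in capitals (RefSeq sequence of WBcel235, the same sequence as ce11). The capitals in the rank 7 line are the consensus itself.
Rank 7, chrX:11094103-11094154, minus strand: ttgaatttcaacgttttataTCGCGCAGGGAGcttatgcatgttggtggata
Rank 29, chrX:2997101-2997152, minus strand: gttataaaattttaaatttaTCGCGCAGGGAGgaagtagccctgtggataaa
Rank 29, chrX:2997276-2997327, minus strand: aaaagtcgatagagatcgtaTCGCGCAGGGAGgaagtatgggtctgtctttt
Rank 6, chrX:14525878-14525929, minus strand: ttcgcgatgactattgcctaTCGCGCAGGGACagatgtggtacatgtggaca
Rank 9, chrX:806637-806688, minus strand: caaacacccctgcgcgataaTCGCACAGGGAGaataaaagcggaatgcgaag
Rank 13, chrX:6296554-6296605, plus strand: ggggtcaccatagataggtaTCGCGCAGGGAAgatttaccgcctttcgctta
Rank 15, chrX:5429568-5429619, plus strand: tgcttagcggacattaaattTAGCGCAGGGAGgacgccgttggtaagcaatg
Rank 34, chrX:16056628-16056679, minus strand: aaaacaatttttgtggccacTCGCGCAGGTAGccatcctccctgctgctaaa
Rank 56, chrX:4209270-4209321, plus strand: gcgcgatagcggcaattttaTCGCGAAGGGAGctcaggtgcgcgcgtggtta

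Counted from 1 at the 5′ end of the consensus, 7 of the 12 single mismatches fell at position 12, as G12C (as at rank 6) or G12A (rank 13). The others were C6A at 2 sites (ranks 29 and 56) and C2A (rank 15), G5A (rank 9) and G10T (rank 34) at 1 site each. The rank 29 peak held 3 matches. The 300 bases that follow show all 3 in an intron, on the plus strand, so that each match reads as the reverse complement in capitals.
Rank 29, chrX:2997008-2997307, plus strand: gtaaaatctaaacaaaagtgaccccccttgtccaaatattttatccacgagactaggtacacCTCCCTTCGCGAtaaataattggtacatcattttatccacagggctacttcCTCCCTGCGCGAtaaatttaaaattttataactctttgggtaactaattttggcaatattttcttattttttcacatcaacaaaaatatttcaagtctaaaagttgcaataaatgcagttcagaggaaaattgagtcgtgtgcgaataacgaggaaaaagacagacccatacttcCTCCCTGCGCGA

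MEX matches of at most 1 mismatch were found in 10 strong X peaks, and all 10 ranked between 6 and 56 among the pooled peaks. No autosomal peak of the same top 3000 held one, and 0 of 2476 allows a share of up to 0.121%. Over the whole pooled list 15 peaks held such a match, a background of 0.05%. Among the 11 X peaks of the top 20, 7 held one (63.6%, 95% Wilson interval 35.4 to 84.8), and 7 of 9 did without the peaks near ceh-63 (77.8%). From rank 21 to 100 the count was 3 of 12, and beyond rank 100 it was 0 of 501, which allows a share of up to 0.599%. Intervals and limits cover the counting of peaks only, and neighbouring peaks are not independent.

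**Figure D1:**
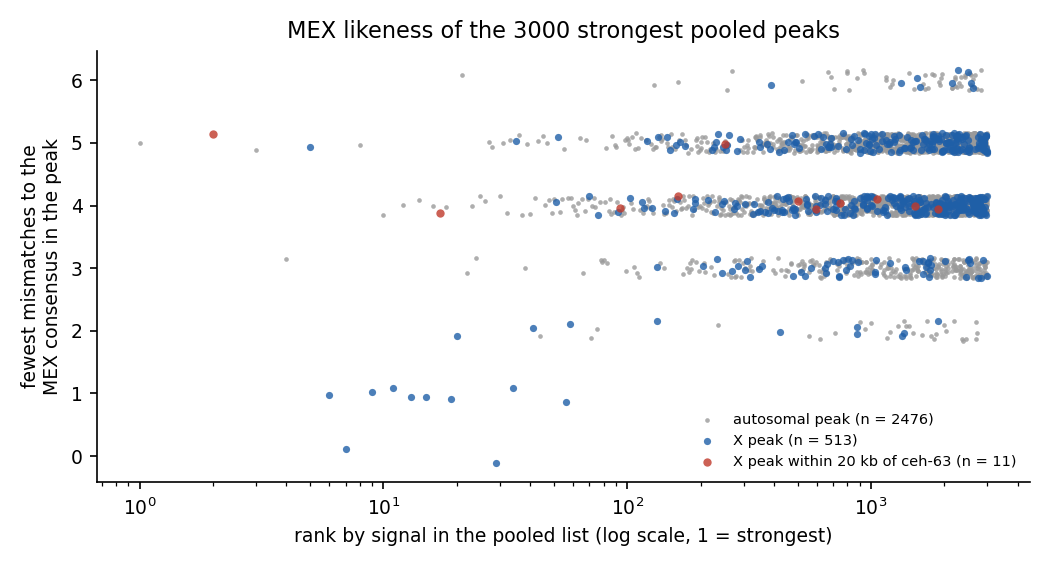
Rank in the pooled list (x axis, log scale, 1 is the strongest) against the fewest mismatches to the MEX consensus within the peak (y axis, points spread vertically for visibility), for 513 X peaks, 11 X peaks within 20 kb of ceh-63 and 2476 autosomal peaks. All 10 points at 0 or 1 mismatch are X peaks with a rank of 56 or less, and none of the 11 peaks near ceh-63 lies below 4 mismatches.

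The peaks with an exact match were those of rank 7 and rank 29. The rank 7 peak (chrX:11094004-11094373, signal 361.1) was intergenic, 1484 bp from the start of the tRNA gene W02H3.t1, and ranked 6 in replicate 1 and 12 in replicate 2. The rank 29 peak (chrX:2996943-2997312, signal 261.4) lay in an intron, 1286 bp from the piRNA gene 21ur-12946, and ranked 35 in replicate 1 and 25 in replicate 2. Both stood among the strongest peaks of each replicate list.

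The strongest of the other 8 peaks was that of rank 6 (chrX:14525708-14526077, signal 364.2), 712 bp upstream of nspc-17, which ranked 11 in replicate 1 and 5 in replicate 2. The rank 9 peak (chrX:806482-806851, signal 355.8) was intergenic with gtr-1 as its nearest start, 3889 bp away, and ranked 8 and 10. The rank 11 peak (chrX:8036194-8036563, signal 347) was 295 bp upstream of the non-coding gene C18A11.13 and ranked 15 and 8. All of these were intergenic and within the top 20 of both replicate lists.

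The peak of rank 13 (chrX:6296407-6296776, signal 332.3) lay in an intron, 3350 bp from the start of cest-16, and ranked 12 in replicate 1 and 6 in replicate 2. The peak of rank 15 (chrX:5429329-5429698, signal 328.6) was the only one of the 10 in a coding exon and the farthest from a start (10045 bp, C41A3.6), with replicate ranks of 14 and 17. The peak of rank 19 (chrX:16681919-16682288, signal 308.5) was intergenic, 2564 bp from F22H10.2, with replicate ranks of 21 and 16. Replicate ranks again lay close to the pooled rank.

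The peak of rank 34 (chrX:16056354-16056723, signal 250.3) was 835 bp upstream of the snoRNA gene T27A8.8 and ranked 44 and 31. The peak of rank 56 (chrX:4209082-4209451, signal 209.9) was 1782 bp from F20B6.9 and ranked 60 and 57. Of the 10 peaks, 7 were intergenic, 2 intronic and 1 in a coding exon. Only 3 were within 1000 bp of a start, and the median distance was 1633 bp. They were spread along X, with 626 to 3432 kb between neighbours (median 1531 kb).

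Together these peaks held 15 matches of at most 1 mismatch, and 4 of the peaks held more than 1. The matches lay 1 to 174 bp from the summit (median 41 bp), and 13 of 15 were within 100 bp of it. The median GC content of the 10 peaks, over the whole interval, was 36.5% (range 31.1 to 45.9%).

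Among the remaining members, 10 held a match with exactly 2 mismatches. They included 3 of the top 100. The rank 20 peak (chrX:11937390-11937759, signal 308.1) had F55G7.5 as its nearest start. The rank 41 peak (chrX:1344881-1345250, signal 235.7) was 645 bp upstream of ins-39, an insulin-like peptide gene. The rank 58 peak (chrX:17544380-17544749, signal 206.8) was 4074 bp from hlh-29, a bHLH gene. The other 7 ranked between 133 and 1890. One of them, of rank 874, lay in an intron 644 bp downstream of a start of the forkhead gene fkh-9.

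The MEX sites of the whole genome were then set against the peaks. Of the 3 exact sites, all on X, each lay in a strong peak. With at most 1 mismatch there were 32 sites on X (1.81 per Mb) and 37 on the autosomes (0.448 per Mb). On X 15 of 32 sites fell in a strong peak (46.9%, 95% Wilson interval 30.9 to 63.6). On the autosomes 0 of 37 did, which allows a share of up to 8.11%, and 1 of 37 fell in any pooled peak (rank 6544). The 15 X sites lay in 10 peaks, 4 of which held more than 1 site. Sites of 1 peak are not independent, so the interval for X covers the counting of sites only.

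The other 17 X sites were not at strong peaks. Weaker pooled peaks held 4 of them, and 13 lay outside every pooled peak. The nearest starts of the 4 peaks were those of sedl-1 (rank 3776, 3021 bp), H06A10.t1 (rank 5999, 2578 bp), F49E10.15 (rank 15894, 385 bp) and apm-3 (rank 26328, 10 bp). One of the 13 sites was 475 bp from the summit of the rank 115 peak (chrX:12362973-12363342), beyond the edge of that peak. The nearest start to the rank 115 peak was that of F19H6.5. A close MEX match on X was therefore not always accompanied by a peak in these lists. Sites with exactly 2 mismatches fell in a strong peak in 17 of 252 cases on X (6.75%, 4.25 to 10.5) and in 30 of 1325 on the autosomes (2.26%, 1.59 to 3.21). Peaks of the top 100 held 9 of the 17 and 3 of the 30. A peak with a closer match can hold such a site too, so the X count is not separate from that of the closer matches.

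**Figure D2:**
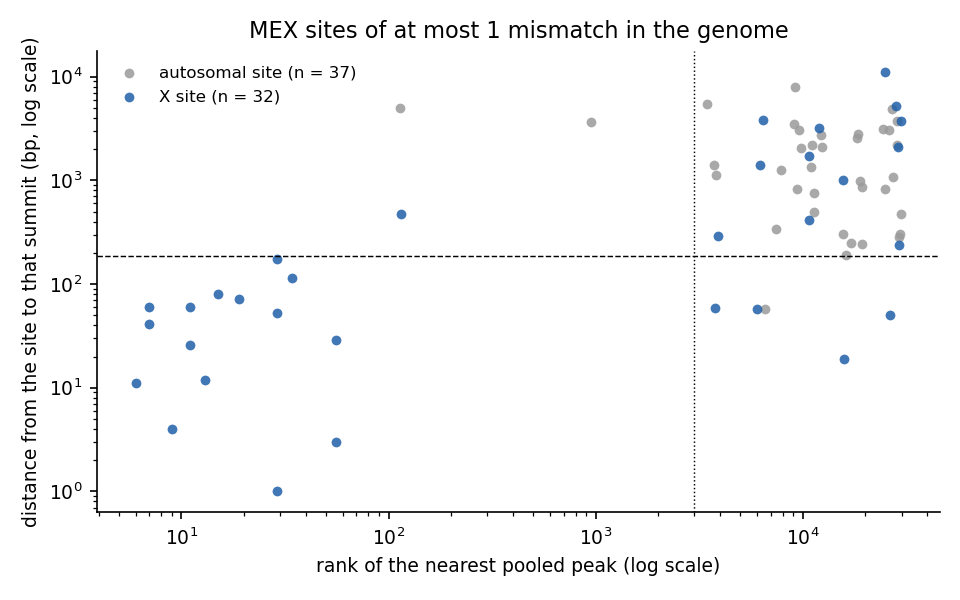
Each point is 1 of the 69 MEX sites of at most 1 mismatch, with the rank of the nearest pooled peak (x axis, log scale) and the distance to its summit in bp (y axis, log scale). The dashed line is the distance from the centre of a peak to its edge (185 bp) and the dotted line is rank 3000. The 15 points at lower left are all X sites, and 1 autosomal site of 37 lies within a peak.

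Over the pooled list, the share of strong peaks fell with each further mismatch on X. Both peaks with an exact match were strong, as were 8 of 12 with 1 mismatch (66.7%), 10 of 39 with 2 (25.6%) and 53 of 421 with 3 (12.6%). With 4, 5 and 6 mismatches the shares were 11.4%, 8.05% and 5.11%. On the autosomes the only peak with 1 mismatch was not strong, and the shares from 2 to 6 mismatches were 16.1%, 13.5%, 11.1%, 8.41% and 6.34%. Intervals for 2 mismatches overlapped between X (14.6 to 41.1) and the autosomes (11.6 to 21.9).

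Whether motif content differed between strong and weaker peaks more on X than elsewhere was tested in a linear model over all 30000 pooled peaks. The model had terms for X, for strong and for their product, with standard errors clustered by 100 kb window and Benjamini-Hochberg adjustment over the 10 properties tested. MEX matches of at most 2 mismatches were in 3.82% of strong and 0.706% of weaker X peaks, and in 1.25% of strong and 0.73% of weaker autosomal peaks, against 0.823% of all pooled peaks. The difference of these differences was 2.59 percentage points (95% interval 0.944 to 4.23, n = 30000 peaks, adjusted p = 0.0102). Without the peaks within 20 kb of ceh-63 it was 2.67 percentage points (0.999 to 4.34).

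The inner word GCGCAGGG of the motif gave a like value. It was in 2.67% of strong and 0.257% of weaker X peaks, and in 0.323% and 0.103% of autosomal ones (difference of differences 2.2 points, 0.844 to 3.55, n = 30000 peaks, adjusted p = 0.0102). The word GGGACGCG, with the same letters in reverse order, was in 0.382% of strong and 0.214% of weaker X peaks (difference of differences 0.0958, −0.446 to 0.638). TAATTA was in 16.6% and 14.3% of X peaks and in 13.7% of both autosomal sets (2.34, −1.56 to 6.24), and neither of these words passed the threshold of 0.05. All words were searched on both strands, GCGCAGGG lies inside the MEX motif, and in windows of 370 bp tiled over X the 3 words were found in 0.159%, 0.169% and 18.1%.

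The motif difference rested on the 100 strongest peaks. Among these, 13 of 23 X peaks (56.5%, 36.8 to 74.4) and 3 of 77 autosomal peaks (3.9%, 1.33 to 10.8) held a match of at most 2 mismatches. From rank 101 to 3000 the counts were 7 of 501 on X (1.4%) and 28 of 2399 on the autosomes (1.17%). With the 100 strongest peaks left out, the difference of differences was 0.255 points (−0.864 to 1.37) and no longer passed the threshold. That setting was chosen after the rank classes had been seen.

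**Figure D3:**
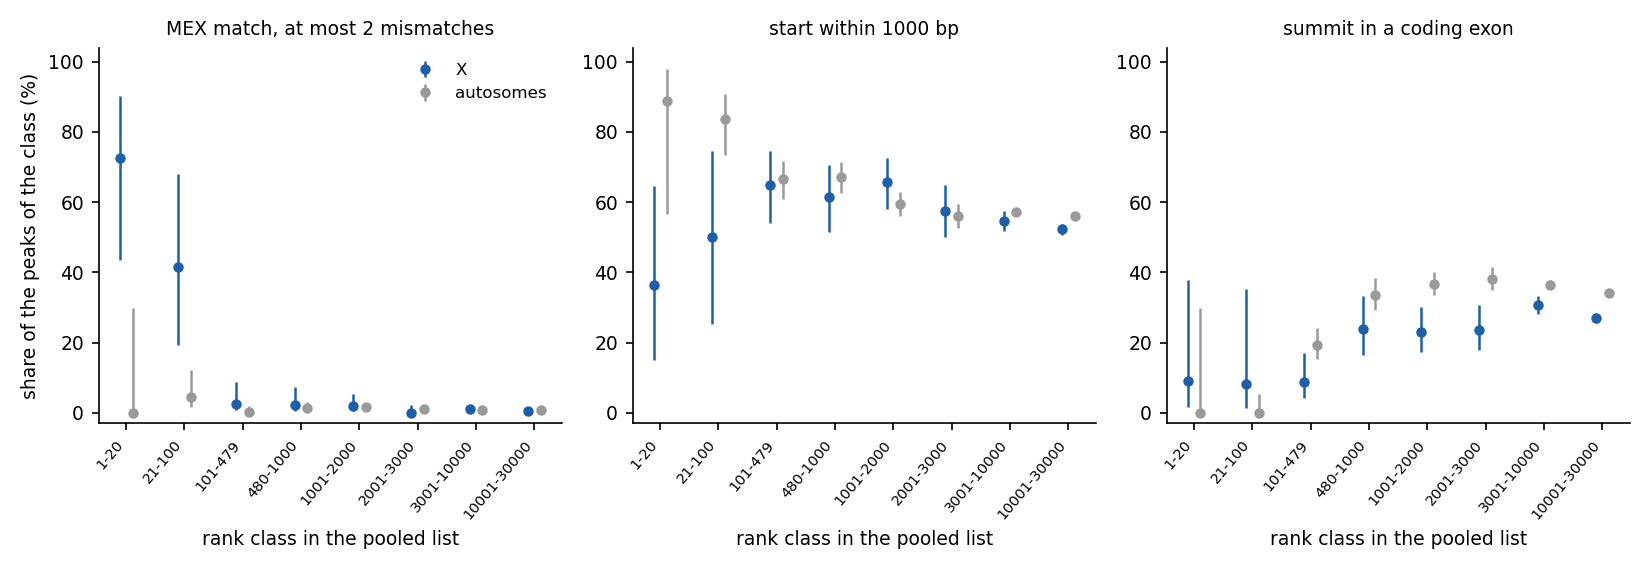
Share of peaks (y axis, %) in 8 rank classes of the pooled list (x axis), for X and the autosomes, with 95% Wilson intervals that cover counting only. The 3 panels show a MEX match of at most 2 mismatches, a start within 1000 bp, and a summit in a coding exon. X and autosomes stand apart in the first 2 rank classes of the MEX panel, where X has 8 of 11 and 5 of 12 peaks with a match.

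The 100 strongest also held 10 X peaks without a MEX match of at most 2 mismatches. Within 20 kb of ceh-63 lay 3 of them (ranks 2, 17 and 93) and 7 lay elsewhere. The rank 5 peak (chrX:13700661-13701030, signal 376.1) was the strongest X peak outside the ceh-63 region, 3058 bp from the non-coding gene K02D3.5, with ranks of 5 and 7 in the replicates and 5 mismatches at best. The rank 35 peak (chrX:11643738-11644107, signal 245.1) was 31 bp upstream of the non-coding gene Y71H9A.9, with replicate ranks of 26 and 52. The rank 51 peak (chrX:3694215-3694584, signal 215.5), with C02F12.8 as its nearest start, lay just beyond the 20 kb margin of ceh-63, with replicate ranks of 49 and 84.

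The remaining 4 had replicate ranks of 47 to 145. They were the rank 52 peak in an intron with F19C6.8 as nearest start, the rank 70 peak in an intron 113 bp upstream of F38B6.23, the rank 76 peak 582 bp upstream of aex-2, a G protein-coupled receptor gene of the defecation motor program, and the rank 92 peak 559 bp upstream of bet-2, which encodes a bromodomain protein. GC content ranged from 35.4% at rank 52 to 58.4% at rank 92. The best match in each of these 7 peaks had 4 or 5 mismatches.

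At the top of the list, X peaks lay farther from annotated starts than autosomal peaks. A start was within 1000 bp of 10 of the 23 X peaks among the first 100 (43.5%, 25.6 to 63.2) and of 65 of the 77 autosomal ones (84.4%, 74.7 to 90.9). Median distances were 1286 bp and 252 bp. From rank 101 to 3000 the shares were 62.1% and 60.6%. Over all strong peaks a start was near 61.3% on both X and the autosomes, against 56.2% of all pooled peaks, and the difference of differences was 3.31 points (−1.91 to 8.52), which did not pass the threshold. With protein-coding starts alone the shares were 40.1% of strong X peaks and 49% of strong autosomal peaks. Weaker peaks had 37.2% on X and 45.7% on the autosomes (difference of differences −0.466, −5.85 to 4.92).

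Among the 524 members, summits were intergenic in 209 (39.9%), intronic in 142 (27.1%), in coding exons in 108 (20.6%), in exons of non-coding genes in 44 (8.4%), in 5′ UTRs in 11 and in 3′ UTRs in 10. Strong X peaks had fewer summits in coding exons than weaker X peaks (20.6% against 27.9%), while strong and weaker autosomal peaks differed less (33.4% against 34.8%). The difference of differences was −5.87 points (−10.3 to −1.45, n = 30000 peaks, adjusted p = 0.0308), and −6.34 without the ceh-63 region. It did not pass the threshold with either replicate's list alone, at −0.155 points from replicate 1 (−5.23 to 4.92) and −3.42 from replicate 2 (−7.54 to 0.688), nor with 1500 or 5000 strong peaks. With the 479 pooled peaks of highest signal as the strong set it was 0.746 points (−6.65 to 8.14). That number is the length of the authors' reproducible list, and the set was cut by pooled signal.

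The other classes tested did not pass the threshold. Intergenic summits gave a difference of differences of 1.54 points (−3.55 to 6.64) and introns 3.17 (−1.58 to 7.92). Non-coding exons held 8.4% of strong and 3.87% of weaker X peaks, against 4% and 1.65% on the autosomes (2.18 points, −0.289 to 4.64). By class of the gene, 30 of those 44 X summits were in ncRNA genes, 11 in tRNA genes and 1 each in an antisense RNA, a lincRNA and a microRNA gene.

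**Figure D4:**
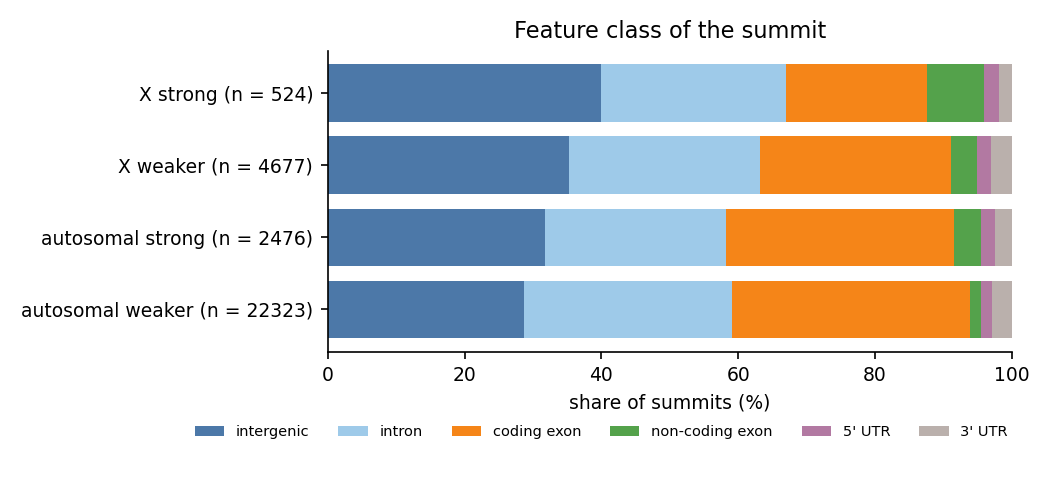
Feature class of the summit as a share of peaks (x axis, %) in strong and weaker X peaks and strong and weaker autosomal peaks, with the number of peaks beside each bar. Coding exons make up 20.6% of the strong X bar and 33.4% of the strong autosomal bar.

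GC content did not separate X from the autosomes. Strong X peaks had a mean of 40.5% ± 6.06 (SD, n = 524 peaks) and weaker X peaks 37.9% ± 5.77 (n = 4677). Strong and weaker autosomal peaks had 40.8% and 38.2%, and the difference of differences was 0.0178 points (−0.622 to 0.657). By rank class, the X medians were 36.8% (ranks 1 to 20), 38.4% (21 to 100), 41.8% (101 to 479), 42.2% (480 to 1000), 40% (1001 to 2000) and 38.6% (2001 to 3000). The autosomal medians of the same classes were 43.8%, 37.7%, 40.8%, 40.8%, 40.3% and 39.7%. GC thus rose and fell again down the X list, and the first class had only 11 X and 9 autosomal peaks. Windows of 370 bp over X had a mean of 35.2%.

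Words of 6 letters were counted as a description, without a test. Of 2080 words (each with its reverse complement), CGAGAG had the largest excess in strong over weaker X peaks, at 21.2% against 10.8%, and was in 18.9% of strong autosomal peaks. TTTAAA had the largest deficit, at 23.3% against 35.8%. Between strong X and strong autosomal peaks, AATGAA had the largest excess (50.2% against 39.1%) and AAATCG the largest deficit (22.7% against 32.8%). Of the words inside the MEX motif, GCAGGG had the largest excess in strong X over strong autosomal peaks (9.35% against 5.21%), at place 127 of 2080. The smallest was that of CGCAGG (8.4% against 6.83%), at place 567. GCAGGG was in 25.2% of the 103 X peaks among the 479 strongest, and no autosomal share of that set is given here.

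Both replicate lists contributed to the pooled list and shared a control alignment, so replicate support is not independent of the selection. A counterpart within 200 bp was found in both replicates for 501 of 524 members (95.6%, 93.5 to 97.1), for 491 of 513 without the ceh-63 region (95.7%) and for 95% of strong autosomal peaks. Among weaker X peaks the share was 36.8%, and over all pooled peaks 43%. With 100 bp it was 84.4% and with 400 bp 97.5% of members. The other 23 members had a counterpart in 1 replicate. The nearest replicate peak was taken for each member, so 1 replicate peak could serve more than 1 member. The members of ranks 11 and 2141, which overlap, had the same nearest peak in replicate 1 (rank 15).

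Ranks were less stable than presence. Both counterparts were in the top 3000 of their lists for 173 members (33%, 29.1 to 37.2), 1 was for 284 and neither was for 67. Of the strong autosomal peaks, 27.9% (26.2 to 29.7) were in the top 3000 of both. The largest gaps were at rank 1990 (29929 in replicate 1 and 728 in replicate 2), rank 743 (598 and 29302) and rank 1523 (25835 and 324). Their nearest starts were those of T07F12.4 (274 bp), snet-1 (1485 bp) and tsct-1 (926 bp). All 10 peaks with a MEX match of at most 1 mismatch had ranks of at most 60 in replicate 1 and at most 57 in replicate 2.

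**Figure D5:**
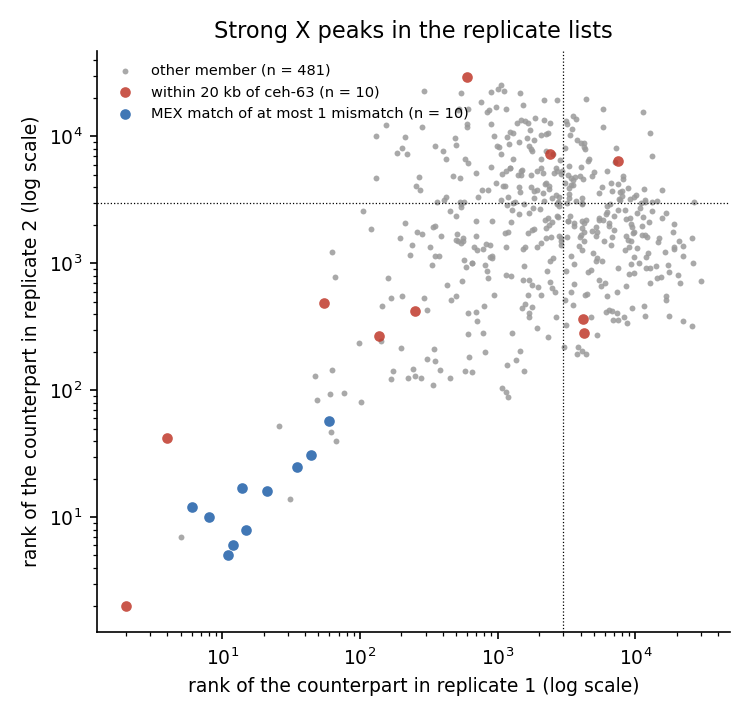
Rank of the counterpart within 200 bp in replicate 1 (x axis) and replicate 2 (y axis), both on log scales, for the 501 members found in both lists. Dotted lines mark rank 3000. The 10 peaks with a MEX match of at most 1 mismatch lie at ranks of 60 or less in both lists, while other members reach ranks as high as 29929 in a single list.

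The members were spread over the whole of X. Divided into 3 equal stretches, the chromosome held 198, 156 and 170 strong peaks from its left to its right end, which were 10.7%, 9.61% and 9.87% of the pooled peaks there. Without the ceh-63 region the left stretch held 187. In 17 full bins of 1 Mb the counts ran from 22 to 43 with a median of 30, and the highest bin, from 3 to 4 Mb, held 32 without the ceh-63 region. By chromosome, strong peaks numbered 29.6 per Mb on X, between 22.7 on V and 38.5 on III.

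Spacing on X was like that on the autosomes. The median gap between neighbouring members was 18678 bp (19607 bp without the ceh-63 region) and that of strong autosomal peaks 18220 bp. Gaps of at most 1000 bp made up 31 of 523 on X (5.93%, 4.21 to 8.29) and 155 of 2471 on the autosomes (6.27%, 5.38 to 7.3), and 8 neighbouring pairs on X overlapped. The most isolated member was that of rank 905 in an intron, 1792 bp from a start of sec-16A.2 (chrX:8288868-8289237) and 94996 bp from its nearest neighbour. The closest trio, of ranks 837, 1005 and 2305, lay within 1423 bp at F17E5.2. The 23 members of the top 100 had a median gap of 599 kb.

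The array carries ceh-63, and 11 members lay within 20 kb of the gene (WBGene00045215, chrX:3672274-3674058). The strongest, rank 2 (chrX:3673599-3673968, signal 460.7), was in the 5′ UTR of ceh-63 and ranked 2 in both replicates. Ranks 17 and 93 were at tag-52, with signals of 322.4 and 177.2, and replicate ranks of 4 and 42 and of 55 and 491. The other 8 had pooled ranks of 162, 253, 504, 596, 743, 1063, 1514 and 1876. None of the 11 held a MEX match of at most 3 mismatches, and 0 of 11 allows a share of up to 27.3%. Such a match was in 13.9% of strong X peaks and 9.63% of all pooled peaks, so a share like these could not be told from 0. Copies from the array and the native locus cannot be told apart in these lists.

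The genes at the members were often non-coding. Of the 321 members with a start within 1000 bp, the nearest start was protein-coding in 168 (52.3%), of class ncRNA in 119 (37.1%) and a tRNA in 23 (7.17%). For strong autosomal peaks the shares were 70%, 18.6% and 1.51%, and for weaker X peaks 60.7%, 31.5% and 3.03%. X carries 45.1% of the annotated tRNA genes and 32.5% of the ncRNA genes, but 13.7% of the protein-coding genes.

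Counted by gene, a strong peak lay within 1000 bp of a start for 500 of 5844 X-linked genes (8.56%). For tRNA genes the count was 53 of 276 on X (19.2%, 15 to 24.3), from 36 separate peaks, and 51 of 336 on the autosomes (15.2%, 11.7 to 19.4), so the intervals overlapped. The strongest at a tRNA gene were the rank 11 peak, 378 bp from C18A11.t2, and the rank 121 peak (signal 164.5), 30 bp from M02F4.t1. MicroRNA genes had 11 of 74 on X (14.9%), from 7 peaks, and 22 of 187 on the autosomes (11.8%). Protein-coding genes had 7.1% on X and 8.08% on the autosomes.

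Among transcription factor genes, 5 of 27 X-linked nuclear hormone receptor genes had a strong peak (18.5%, 8.18 to 36.7): nhr-40 (rank 438), nhr-1 (rank 461), nhr-32 (rank 1237), nhr-255 (rank 1512) and nhr-14 (rank 2830). On the autosomes 11 of 247 did (4.45%, 2.5 to 7.8). Over all genes the shares were 8.56% on X and 6.55% on the autosomes, and each lies inside the receptor interval of its chromosomes. The homeobox genes had 1 of 27 (3.7%, 0.657 to 18.3), which was ceh-63 itself, and 0 without its region, against 8 of 72 on the autosomes (11.1%). That X interval also holds the 8.56% of all X-linked genes. For the other DVC neuron genes, the nearest member was 1888 bp from the start of ceh-14 (rank 143) and 2160 bp from mbr-1 (rank 591).

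The remaining lists are read against the 8.56% of all X-linked genes and the same list on the autosomes. Neuropeptide genes had 4 of 37 (10.8%, 4.29 to 24.7), against 4.67% on the autosomes: ins-39 (rank 41), flp-18 (rank 2314), flp-19 (rank 2462) and nlp-1 (rank 2618). Body wall muscle genes had 2 of 11 (18.2%, 5.14 to 47.7), against 14.8%: the actin gene act-4 (rank 234, 314 bp from a start) and the troponin I gene unc-27 (rank 924). Synaptic genes had 2 of 33 (6.06%, 1.68 to 19.6), against 5.43%: the acetylcholine receptor subunit gene acr-2 (rank 309) and syd-2 (rank 2745), which encodes a liprin. The intervals of these 3 lists hold both comparison shares. Collagen genes had 0 of 31, which allows a share of up to 9.68%, against 12 of 143 on the autosomes (8.39%), so a share like that of all X-linked genes could not be told from 0. The snoRNA and snRNA genes had 1 of 36 (2.78%, 0.492 to 14.2), against 84 of 439 on the autosomes (19.1%).

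None of the 6 X-linked genes of dosage compensation and X counting had a strong peak within 1000 bp of a start. A count of 0 of 6 allows a share of up to 50%. A share like the 8.56% of all X-linked genes could thus not be told from 0, and the autosomal genes of this list had 0 of 9. The X-linked genes are sdc-1 and sdc-2, which act in loading the complex, and xol-1, the switch gene of sex determination. The others are fox-1, ceh-39 and sex-1, which signal the number of X chromosomes. The best pooled peak was at rank 4300 for fox-1, 10025 for xol-1, 16146 for sdc-2, 20065 for sdc-1 and 27373 for ceh-39, and sex-1 had none. The nearest member was 1327 bp from a start of fox-1 (rank 2270), 3029 bp from ceh-39 (rank 2413) and 4681 bp from xol-1 (rank 2141). It was 15369 bp from sex-1, 33086 bp from sdc-2 and 34188 bp from sdc-1.

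At the threshold, the last members inside were ranks 2990 (B0272.3, signal 79.28), 2992 (F52B10.8, 79.27) and 2996 (F52G3.6, 79.25). The first X peaks outside were ranks 3001 (H01A20.4, 79.22), 3026 (C14A11.6, 79.08) and 3027 (T18D3.6, 79.08). Signal thus ran on without a break, from a median of 90.2 among the members down to 53.6 in the weaker X peaks. A q-value of 0.05 or less was reached by 43 members (8.21%), by 6.1% of strong autosomal peaks and by 0.647% of all pooled peaks. All 43 ranked within the top 479, and 0 of the other 421 members reached it.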

How the data were processed

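Peak lists of 2 replicates, of both replicates together and of reproducible peaks were used. The deposited README texts state that the authors called each list against 1 shared control alignment and derived the reproducible list with an irreproducible discovery rate threshold. Aligner, caller and threshold value were not found in the labels or headers. The authors' signal has no stated scale and was used for ranks and descriptions within a list. The deposited −log10 q-value column was used for 1 count. Neither depth nor read counts are known, and precision is limited by the number of peaks.

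Genes and starts came from Ensembl release 115 for WBcel235 without pseudogenes, and sequence from the RefSeq genome of the same assembly. Each summit got a single class among intergenic, intron, non-coding exon, coding exon and the UTRs. Motifs were searched on both strands of the deposited interval of 370 bp. Linear models were fitted with statsmodels 0.14.6 in Python 3.11.15 (numpy 2.4.6, pandas 2.3.3, scipy 1.17.1) and tested on simulated data. The simulated shares were far higher than those of the MEX motif and GCGCAGGG, so the models were not checked for such rare matches. Their p-values are normal approximations over peaks, not over replicates, so they do not cover variation between animals. Figures were drawn with matplotlib 3.10.9.

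Named peaks were the 12 strongest outside 20 kb of ceh-63, those inside it, those at rank 3000, those with close MEX matches, those with the largest replicate gaps, and the most isolated and closest ones. Up to 4 genes were named per gene list. The remaining peaks of the top 100, the rank 115 peak, the peak at fkh-9, the fifth nuclear hormone receptor gene and the words printed were picked once their values had been seen. The members and lists were chosen with earlier results of these data known. Alternatives covered the number of strong peaks, each replicate alone, the ceh-63 region, clustered peaks, distances, mismatches and windows.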

Additional observations from a re-analysis of the deposited data

How the results depend on the processing

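Of 100 recomputed values, 86 kept their direction and side of the threshold or, where no test passed in either setting, stayed without a call. The coding exon difference was the least stable: it was −4.13 points with 1500 strong peaks, −4.09 with 5000, −6.4 without the 100 strongest peaks, 0.746 with 479 strong peaks and 16.2 with 100 strong peaks. With single replicate lists it ran from −3.42 to −0.155. With 100 strong peaks the non-coding exon difference was −12.9 and the difference for starts within 1000 bp was −38 points (−58.4 to −17.6), both opposite to the values with 3000. Among the 100 strongest, 0 of 23 X peaks had a summit in a non-coding exon, which allows a share of up to 13%. Coding exons held 8.7% of these X peaks and 0% of the autosomal ones, so both class differences rested on an empty set. The MEX difference was 1.37 points with at most 3 mismatches and 0.255 without the 100 strongest peaks, and the GCGCAGGG difference 0.436 without them. From single replicate lists the MEX difference was 2.26 to 2.75 points and the GCGCAGGG difference 1.93 to 2.63, each past the threshold. Replicate support was 84.4% within 100 bp and 97.5% within 400 bp. The cause of these changes was not tested. Leaving out the 100 strongest peaks removed all 10 strong peaks with a MEX match of at most 1 mismatch. The weaker peaks with such a match, 4 on X and 1 on the autosomes, stayed in. The settings with 100 strong peaks and without them were added after seeing the data.

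No paired analysis was possible because both replicates form 1 group. Depth is unknown, the 23 X peaks of the top 100 give wide intervals, and a single strain and stage with 2 libraries does not separate the tagged protein from other properties of these chromatin samples.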

Other observations

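A word beside the MEX matches was seen while the printed sequences were read, and its counts are given as a description only. Within 25 bases 3′ of the match, GTGGATA was present at 6 of the 15 X sites in strong peaks, starting 11 to 14 bases after the match. These 6 sites lay in 3 peaks, 2 each at ranks 7, 11 and 29, and sites of 1 peak are not independent. It was at 0 of the 17 other X sites of at most 1 mismatch, which allows a share of up to 17.6%, and at 0 of 37 autosomal sites, which allows up to 8.11%. The word, searched on both strands, was in 5 of the 10 strong X peaks with such a match from which it was picked and in 2 of the 13 other X peaks of the top 100. Elsewhere it was in 2.99% of members beyond rank 100, 2.76% of weaker X peaks, 3.11% of strong autosomal peaks and 2.75% of 370 bp windows tiled over X.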
